A study of Mus musculus with 8 samples.

Results

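The genes described here are Yap1 and Wwtr1, the 4 Tead genes (Tead1, Tead2, Tead3 and Tead4) and 4 genes that YAP and TEAD are known to switch on (Ctgf, Cyr61, Ankrd1 and Amotl2). They were chosen by name, and all 10 were found among the 22609 gene symbols of the count tables. Total RNA of 2 immortalized mouse dental papilla cell lines was sequenced, the iBmp2fx/fx cells (fx), which carry floxed Bmp2 alleles, and the iBmp2ko/ko cells (ko), in which Bmp2 is deleted. For each line 1 library was made after 6, 24, 48 and 72 h of culture, which gave 4 libraries per genotype. There was 1 line per genotype, so an effect of the deletion and any other difference between the lines cannot be told apart, and p-values measure only the spread between these libraries. The genotypes were compared over 6 libraries, those grown for 6, 48 and 72 h as named in the study's methods, so that culture times stood in for replicates.

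YAP (Yap1) and TAZ (Wwtr1) are co-activators that carry no DNA-binding domain of their own and reach DNA through the TEAD factors. The Hippo kinases phosphorylate them in dense or softly attached cells and keep them in the cytoplasm, where their RNA need not change. In mesenchymal cells their target genes are read as a measure of spreading, tension and growth, and Ctgf, Cyr61, Ankrd1 and Amotl2 are the usual ones.

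The reads assigned to genes numbered 25890110 to 32415665 in each library. Bmp2 had 1 read in fx at 24 h and 0 in the other 7 libraries, so its level could not check the genotype labels. Of 12 dental mesenchyme markers 11 were above 3 reads in at least 1 library and Lhx8 was not. Their summed level, 7501 to 9219 counts per 1000000 reads (CPM) in the 4 fx libraries and 10347 to 13636 CPM in ko at 6, 48 and 72 h, did not overlap between the lines. The library labelled ko 24 h had 8637 CPM. Vim, Col1a1 and Col1a2 made up most of this sum, so it does not stand for the other markers. Single markers went both ways: with culture time as a block in edgeR, Vim, Col1a2 and Pdgfrb were called higher in ko and Pdgfra and Msx1 lower, in a fit that called 22.7% of all genes. Without the block edgeR called none of these 5 and DESeq2 called Msx1. At 6, 48 and 72 h Msx1, Msx2 and Lhx6 lay lower in ko without overlap and Vim and Pax9 higher, where 20.0% of all genes did not overlap. Of 5 odontoblast markers Dspp was at or under 3 reads in all 8 libraries and 4 were not, though Dmp1 had at most 8 reads. Their sum, 128 to 238 CPM in fx and 85.4 to 120 CPM in ko at 6, 48 and 72 h, did not overlap either. The library labelled ko 24 h had 133 CPM. Nes made up most of this sum, at 115 to 176 CPM in fx and 84.2 to 118 CPM in ko. Among the 5 markers Alpl, the alkaline phosphatase of mineralizing cells, was at 12.6, 37.4, 50.8 and 61.7 CPM in fx and at 0.622, 0.551 and 1.45 CPM in ko (log2 fold change -5.61, SE 0.72, adjusted p = 0.0153, edgeR without a block). In the library labelled ko 24 h Alpl was at 12.9 CPM. The summed level of 7 epithelial markers was 0.994 to 2.70 CPM in fx and 0.496 to 1.54 CPM in ko at 6, 48 and 72 h, that of 5 endothelial markers 1.93 to 3.32 and 1.61 to 3.63 CPM, and that of 5 leukocyte markers 27.0 to 44.3 and 26.8 to 45.1 CPM. Of the 6 skeletal muscle markers Myog, Ckm and Myh3 were at or under 3 reads, and the sum was 15.9 to 23.9 CPM in fx and 7.32 to 15.3 CPM in ko. These sums do not stand for each marker either: Cd14, at 22.8 to 41.7 CPM in the 8 libraries, made up most of the leukocyte sum, while Cd68 (log2 fold change -1.25, SE 0.31) and Csf1r (-1.64, SE 0.32) were called lower in ko by edgeR with the block. That fit also called Nes, Krt14, Kdr and Des lower and Tek higher. The part of these marker differences in the results was not tested.

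The library labelled ko 24 h went against its label. Over 10937 well-counted genes the SD of its log2 ratio to the fx library of 6 h was 0.123, while the next most alike pair, fx 24 h and fx 48 h, had 0.307. The counts of the pair were not identical. Over the 10 genes described here its root mean square log2 difference from fx at 6 h was 0.0641, and from the other 6 libraries it was 0.642 to 1.36. It lay nearer to the fx mean than to the ko mean for 5 of the 10 genes, and for 65.2% of all tested genes. It is called the library labelled ko 24 h, both 24 h libraries are shown apart, and results that take them in are given as such.

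Promoter sequences are shown because the TEAD factors bind a short core, GGAATG. The RefSeq table (GRCm38.p6) held a promoter, 250 bases before to 50 after the start, for 7 of the 10 genes, and none for Tead1, Tead4 and Ctgf. GGAATG was searched on both strands, which takes in its reverse complement CATTCC, and it was present in 6 of the 7 genes, Tead2 being the one without it. Of these 6, Cyr61, Ankrd1 and Amotl2 are the targets, and Yap1, Wwtr1 and Tead3 are factors. Of all 27025 genes with an entry, 16.58% had it in at least 1 promoter, and of all 32851 promoters of the same length 14.66%. The AP-1 motif TGANTCA (any base at N, both strands, no overlap with GGAATG in its letters) was in 0 of the 7, against 8.97% of genes. The 250 bases before the start are given 5′ to 3′ on the strand of the gene, in mm9 positions where each had 1 exact match, with GGAATG or CATTCC in capitals. The 2 co-activators (Yap1, chr9:8004597-8004846, minus strand, and Wwtr1, chr3:57379833-57380082, minus strand) and the 2 targets with the clearest difference between genotypes (Cyr61, chr3:145312950-145313199, minus strand, and Ankrd1, chr19:36194335-36194584, minus strand) are shown:
Yap1: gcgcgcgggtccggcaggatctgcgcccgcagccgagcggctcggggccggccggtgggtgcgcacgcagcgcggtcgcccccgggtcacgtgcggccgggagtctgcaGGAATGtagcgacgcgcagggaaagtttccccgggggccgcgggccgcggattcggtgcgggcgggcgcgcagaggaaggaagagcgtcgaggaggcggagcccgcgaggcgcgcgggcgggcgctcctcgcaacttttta
Wwtr1: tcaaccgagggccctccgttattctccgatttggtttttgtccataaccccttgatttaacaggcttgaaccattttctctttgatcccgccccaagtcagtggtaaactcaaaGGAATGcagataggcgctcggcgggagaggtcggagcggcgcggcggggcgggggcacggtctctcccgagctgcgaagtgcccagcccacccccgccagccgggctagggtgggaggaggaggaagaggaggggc
Cyr61: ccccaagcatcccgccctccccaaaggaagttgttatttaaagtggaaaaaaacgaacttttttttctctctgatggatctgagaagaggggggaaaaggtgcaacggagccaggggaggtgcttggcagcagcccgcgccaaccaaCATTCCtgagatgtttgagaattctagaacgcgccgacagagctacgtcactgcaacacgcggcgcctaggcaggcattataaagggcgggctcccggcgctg
Ankrd1: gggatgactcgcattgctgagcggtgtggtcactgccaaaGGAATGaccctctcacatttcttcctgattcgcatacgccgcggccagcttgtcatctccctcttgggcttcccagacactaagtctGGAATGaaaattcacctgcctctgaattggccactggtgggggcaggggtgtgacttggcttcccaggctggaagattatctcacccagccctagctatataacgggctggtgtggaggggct
The first base of the match lay 141 bases before the start in Yap1, 136 in Wwtr1 and 103 in Cyr61, and Ankrd1 had 2 matches, at 210 and 123 bases. For Amotl2, where 136 of the 250 bases lie in annotated exons, only the 30 bases around the match are shown (chr9:102620057-102620086, plus strand):
Amotl2: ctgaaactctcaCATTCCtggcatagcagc
A match is a description of the letters in this window and not evidence of binding.

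Yap1 RNA (chr9:7931999-8004596 in mm9) stayed within a narrow range. Its normalised level was 168, 162, 158 and 179 CPM in fx at 6, 24, 48 and 72 h, and 147, 173 and 194 CPM in ko at 6, 48 and 72 h. The library labelled ko 24 h had 170 CPM. The libraries of both genotypes overlapped, with ko below fx at 6 h and above it at 48 and 72 h. The log2 fold change, ko over fx, was 0.020 (SE 0.17, n = 3 per genotype, adjusted p = 0.977, edgeR quasi-likelihood test).

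Wwtr1 RNA (TAZ, chr3:57259571-57379832) was lower in ko at each of the 3 compared times. It measured 219, 242, 241 and 202 CPM in fx and 131, 165 and 132 CPM in ko at 6, 48 and 72 h. Every one of these ko libraries lay below every fx library, whereas the library labelled ko 24 h, at 225 CPM, lay among the fx libraries. The means were 221 ± 19.4 CPM in fx and 143 ± 19.2 CPM in ko (SD, n = 3). Wwtr1 was the 1 gene of the 10 whose libraries did not overlap between genotypes, and over all tested genes 20.0% did not overlap, 10.1% with ko lower.

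The test depended on whether culture time was taken into account. All 10 genes passed the filter on low counts. Without the block, Wwtr1 had a log2 fold change of -0.63 (SE 0.18, adjusted p = 0.169, edgeR), and 0 of the 10 genes passed an adjusted p of 0.05, where 2.22% of all 13121 tested genes did. At an unadjusted p under 0.05 it was 1 of the 10, Wwtr1, against 14.0% of all genes. By the limits in the study's methods (absolute log2 fold change over 1 with such a p) it was 0 of the 10, against 7.35%. The study used these limits with the limma package, while the p here is that of edgeR. DESeq2 without the block called 1, Wwtr1 (adjusted p = 0.0195), against 6.65% of genes. With culture time as a block, which compares ko and fx of the same time, edgeR called 3 of the 10, where it called 22.7% of all genes (11.3% higher and 11.4% lower in ko). These were Wwtr1 (log2 fold change -0.64, SE 0.10, adjusted p = 0.00518) and Cyr61, both lower in ko, and Ankrd1, higher in ko. The same 3 were called when both libraries of 6 h, of 48 h or of 72 h were left out of the blocked fit in turn, where 13.9, 19.6 and 11.7% of all genes were called; without those of 72 h Ctgf was called as well. DESeq2 with the block called the same 3, against 24.1% of genes. Leaving out a culture time and DESeq2 with the block were chosen after seeing the data. Adding fx 24 h alone, without the block, gave 0 of the 10 (Wwtr1, adjusted p = 0.0538, edgeR) against 3.66% of genes, and adding both 24 h libraries gave 0 of the 10 and 0 of all genes, with 1 of the 10 and 10.2% of all genes at an unadjusted p under 0.05.

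**Figure D1:**
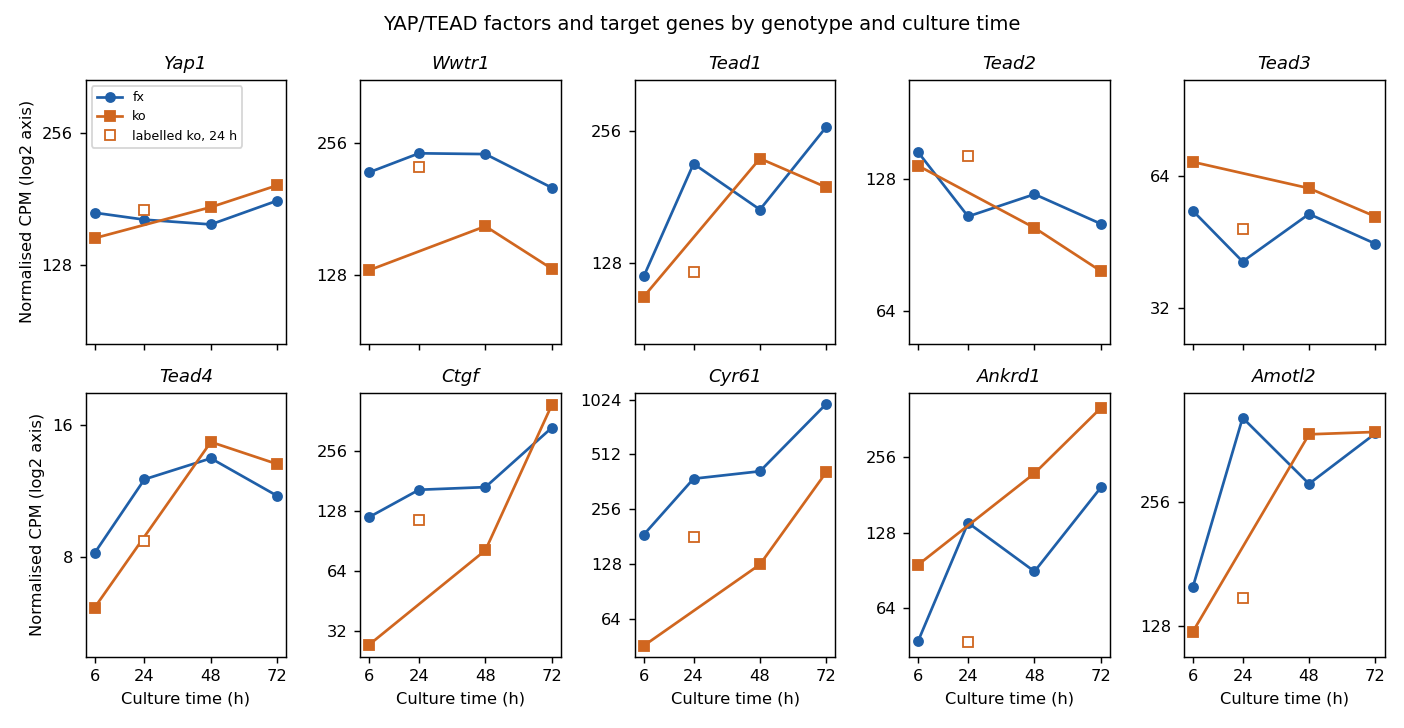
Normalised CPM (log2 axis, each panel with its own range) against culture time in hours for the 10 genes, with 1 library per point; circles are fx, filled squares ko, and the open square is the library labelled ko 24 h. Wwtr1 and Cyr61 lie lower in ko and Ankrd1 lies higher at 6, 48 and 72 h, and the open square lies near the fx point of 6 h in each panel.

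Per length of transcript, Wwtr1 RNA was more abundant than Yap1 RNA in fx. The ratio of Wwtr1 to Yap1 in RPKM (CPM per kilobase, over all annotated exons) was 2.53, 2.96 and 2.19 in fx at 6, 48 and 72 h and 1.73, 1.84 and 1.32 in ko, so the 2 sets did not overlap. It was 2.89 in fx at 24 h and 2.57 in the library labelled ko 24 h. This ratio needs no scaling between libraries. With the longest transcript as the length, the mean ratio was 1.49 in fx and 0.946 in ko, so which co-activator RNA was the more abundant in ko depended on the gene model.

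The Tead genes encode the DNA-binding partners of both co-activators. Tead1 (chr7:119822832-120050319) was at 119, 215, 169 and 261 CPM in fx at 6, 24, 48 and 72 h and at 107, 221 and 190 CPM in ko at 6, 48 and 72 h. Tead2 (chr7:52471123-52489005), which overlaps Cd37, was at 147, 105, 118 and 101 CPM in fx and at 137, 98.9 and 78.8 CPM in ko. Tead1 was thus lowest at 6 h and Tead2 highest at 6 h in both lines, and the genotypes overlapped for both genes. In the library labelled ko 24 h Tead1 was at 122 CPM and Tead2 at 144 CPM, each close to its fx level of 6 h.

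Tead3 (chr17:28468616-28487750) was at 53.4, 40.9, 52.5 and 44.9 CPM in fx and at 69.0, 60.1 and 51.8 CPM in ko at 6, 48 and 72 h. Tead4 (chr6:128174306-128250841) was the least abundant, at 8.15, 12.0, 13.4 and 11.0 CPM in fx and 6.12, 14.6 and 13.0 CPM in ko. Tead3 was above the fx library of the same time at all 3 times and Tead2 below it at all 3, but neither passed the adjusted limit with the block. The values were a log2 fold change of 0.25 (SE 0.11, adjusted p = 0.137, edgeR) for Tead3 and -0.24 (SE 0.11, adjusted p = 0.155) for Tead2. Tead1 (-0.080, SE 0.17) and Tead4 (-0.013, SE 0.17) had no common direction over the 3 times.

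Per length, the Tead2 share of the Tead RNAs was smaller and the Tead1 share larger at 72 h than at 6 h in both lines. Tead2 made up 55.7, 41.5, 45.0 and 37.3% of the summed Tead RPKM in fx at 6, 24, 48 and 72 h. In ko it made up 52.2, 36.2 and 34.3% at 6, 48 and 72 h. Tead1 made up 18.8, 35.2, 26.9 and 39.9% in fx and 16.9, 33.6 and 34.4% in ko at these times. In fx neither share thus moved steadily with culture time. The sum over the 4 genes was 56.5, 54.3, 55.9 and 58.2 RPKM in fx and 56.2, 58.6 and 49.2 RPKM in ko. Tead4 stayed between 3.03 and 7.35% in all 8 libraries. These shares use all annotated exons as the length, and Tead1 then stood above Tead2 at 72 h in both lines. With the longest transcript as the length Tead2 stood above Tead1 at 72 h, at 41.0 against 36.1% in fx and 37.7 against 31.0% in ko. Which share was the larger at 72 h thus depended on the gene model. No test was run on these shares.

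**Figure D2:**
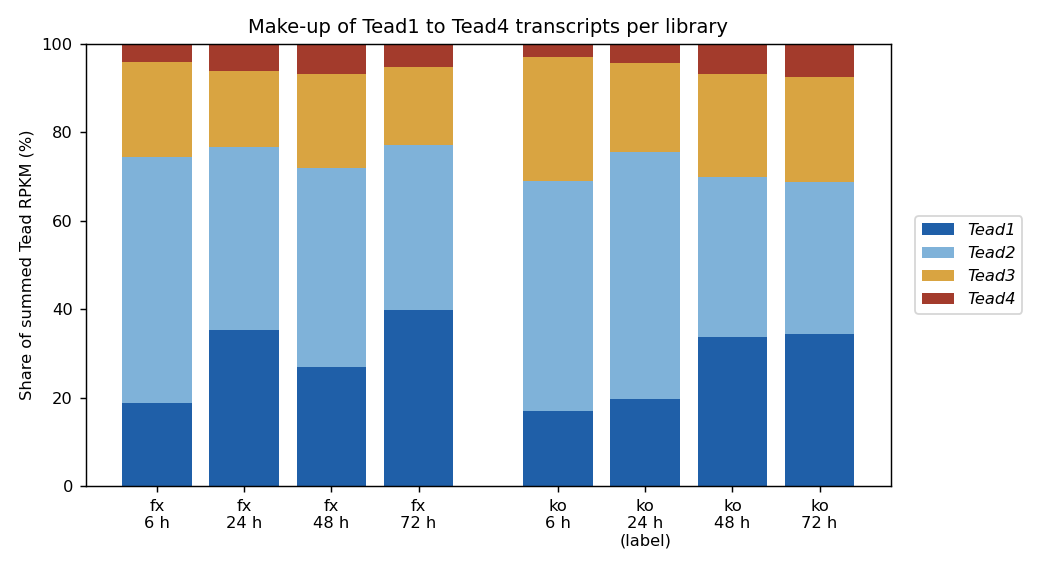
Share of the summed RPKM of Tead1 to Tead4 (%, stacked bars) in each of the 8 libraries, fx on the left and ko on the right by culture time in hours. The Tead2 share is 55.7% at 6 h and 37.3% at 72 h in fx and 52.2 and 34.3% in ko, and the library labelled ko 24 h, at 56.0%, is close to fx 6 h.

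Among the targets, Cyr61 (chr3:145309935-145312949), which encodes a secreted matrix-associated protein of the CCN family, was lower in ko. It was at 185, 376, 413 and 970 CPM in fx at 6, 24, 48 and 72 h and at 45.4, 127 and 409 CPM in ko at 6, 48 and 72 h. Against the fx library of the same time ko was 4.08-fold lower at 6 h, 3.24-fold at 48 h and 2.37-fold at 72 h, while the ranges of the genotypes over all 3 times overlapped. The blocked log2 fold change was -1.66 (SE 0.15, adjusted p = 5.47e-04, edgeR), and without the block -1.47 (SE 0.85, adjusted p = 0.509), which ran from -2.60 without ko at 72 h to -0.64 without fx at 72 h. The library labelled ko 24 h had 179 CPM, close to fx at 6 h, so for Cyr61 its pair with fx 24 h is nearly that of fx 6 h with fx 24 h. With that pair taken in, over all 8 libraries with the block, Cyr61 was the 1 gene of the 10 that was called (log2 fold change -1.51, SE 0.18, adjusted p = 0.0427), where 0.337% of all genes were.

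Ankrd1 (chr19:36186455-36194334), which encodes an ankyrin repeat protein of muscle and stretched cells, differed in the opposite direction. It was at 47.2, 140, 89.4 and 194 CPM in fx and at 95.2, 221 and 404 CPM in ko at 6, 48 and 72 h. At the same time ko was 2.02-fold higher at 6 h, 2.47-fold at 48 h and 2.08-fold at 72 h. The blocked log2 fold change was 1.12 (SE 0.11, adjusted p = 8.34e-04, edgeR), and without the block 1.10 (SE 0.63, adjusted p = 0.508), which ran from 0.51 without ko at 72 h to 1.8 without fx at 72 h. The library labelled ko 24 h, at 46.8 CPM, lay 1.59 below fx 24 h on the log2 scale, and over all 8 libraries the blocked value was 0.52 (SE 0.49, adjusted p = 0.533).

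The ratio of these 2 targets within single libraries, where no scaling enters, also differed between the lines. Such a ratio shows their difference relative to each other and not the direction of each. There were 3.93, 4.62 and 5.0 Cyr61 reads per Ankrd1 read in fx at 6, 48 and 72 h, and 0.477, 0.576 and 1.01 in ko. The ratio was 2.68 in fx at 24 h and 3.84 in the library labelled ko 24 h. All 4 fx libraries lay above the ko libraries of 6, 48 and 72 h. The pair was chosen after its values were seen, so no test is given.

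Ctgf (chr10:24315248-24318489), a second secreted CCN protein, crossed over. It was at 119, 163, 168 and 333 CPM in fx and at 27.4, 81.2 and 433 CPM in ko at 6, 48 and 72 h. On the log2 scale ko lay 2.11 below fx at 6 h, 1.04 below at 48 h and 0.38 above at 72 h. The blocked log2 fold change was -0.92 (SE 0.39, adjusted p = 0.125, edgeR), and without both libraries of 72 h it was -1.58 (SE 0.26, adjusted p = 0.00942). Without the block it was -0.24 (SE 0.89, adjusted p = 0.943, edgeR), which ran from -1.93 without ko at 72 h to 0.32 without fx at 72 h. The library labelled ko 24 h had 115 CPM, close to fx at 6 h.

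Amotl2 (chr9:102619002-102635748), an angiomotin that binds YAP and is induced by it, showed no common direction. It was at 159, 409, 283 and 375 CPM in fx and at 124, 373 and 378 CPM in ko at 6, 48 and 72 h. The genotypes overlapped, and the blocked log2 fold change was 0.014 (SE 0.15, adjusted p = 0.954, edgeR). In the library labelled ko 24 h it was at 150 CPM, 1.44 below fx 24 h on the log2 scale.

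**Figure D3:**
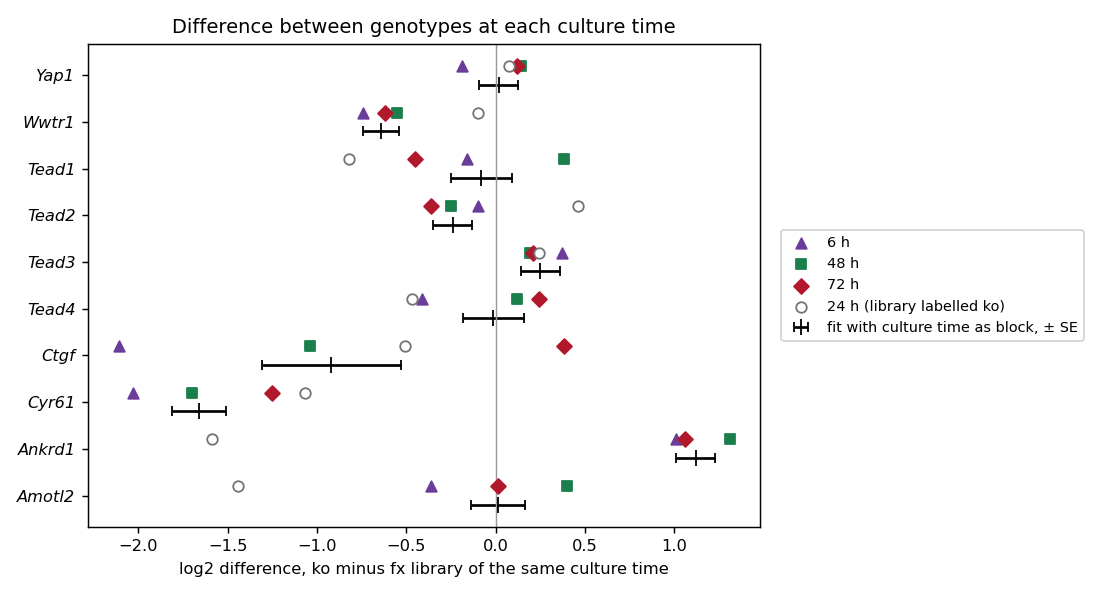
Log2 difference of each gene between the ko and the fx library of the same culture time (coloured marks: triangle 6 h, square 48 h, diamond 72 h; open circle: library labelled ko against fx at 24 h), with the estimate of the edgeR fit with culture time as a block and its SE in black. Cyr61 and Wwtr1 lie below 0 and Ankrd1 above 0 at 6, 48 and 72 h, and Ctgf runs from -2.11 to 0.38.

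The 3 genes called with the block lie on chromosomes whose median difference between the lines was away from 0, as do Ctgf and Tead4, which were not called. Wwtr1 and Cyr61 are on chromosome 3, where the median blocked log2 fold change of the other 637 tested genes was -0.40 and 46.9% were called. Ankrd1 is on chromosome 19, where the median of 465 genes was 0.36 and 41.1% were called. On the chromosomes of Yap1 and Amotl2 (chromosome 9) the median was -0.005, and 16.5% were called. Ctgf, on chromosome 10, had a blocked value of -0.92 where the chromosome's median was 0.29 and 35.7% were called. Tead4, on chromosome 6, was at -0.013 where the median was 0.20 and 24.0% were called. Wwtr1, at -0.64, lay nearer to its chromosome's median than Cyr61, at -1.66, and the 4 tested neighbours of Wwtr1 within 500000 bases had a median of -0.45 and the 8 of Cyr61 one of -0.25. The part of these chromosome-wide differences in the results was not tested.

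All 4 target genes were higher at 72 h than at 6 h in both lines. Ctgf was 2.81-fold higher in fx and 15.8-fold higher in ko, Cyr61 5.23-fold and 9.01-fold, Ankrd1 4.12-fold and 4.25-fold, and Amotl2 2.36-fold and 3.05-fold. Of the factors, Tead1 was 2.19-fold higher in fx and 1.79-fold higher in ko, whereas Yap1 was 1.07-fold and 1.32-fold and Wwtr1 0.922-fold and 1.01-fold its level of 6 h. The rise in fx was not steady for all of them. Amotl2 (409 and 283 CPM), Ankrd1 (140 and 89.4 CPM) and Tead1 (215 and 169 CPM) were higher in fx at 24 h than at 48 h, while Ctgf and Cyr61 were not.

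Slopes were fitted over the 6 libraries of 6, 48 and 72 h, without either library of 24 h. Per doubling of culture time the log2 slope over both genotypes was 0.68 (SE 0.13) for Cyr61, 0.63 (SE 0.21) for Ctgf, 0.51 (SE 0.089) for Ankrd1 and 0.39 (SE 0.063) for Amotl2. For Tead1 it was 0.27 (SE 0.066), for Tead4 0.24 (SE 0.081) and for Tead2 -0.18 (SE 0.048), and for Yap1 0.045 (SE 0.047), Wwtr1 0.008 (SE 0.055) and Tead3 -0.083 (SE 0.047). With edgeR 0 of the 10 slopes passed the adjusted limit, and 0 of all tested genes did, while 7 of the 10 had an unadjusted p under 0.05, against 21.1% of all genes. DESeq2 called 6 of the 10, against 7.45% of all genes, namely Tead1, Ctgf, Cyr61, Ankrd1 and Amotl2 upwards (4.88% of all genes) and Tead2 downwards (2.58%). Without the ko library of 48 h edgeR called 3, Cyr61, Ankrd1 and Amotl2, against 1.47% of genes. The slope of Ctgf ran from 0.41, without ko at 6 h or at 72 h, to 0.99, without fx at 6 h. The median slope was 0.25 over the 10 genes and -9.66e-04 over all tested genes.

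**Figure D4:**
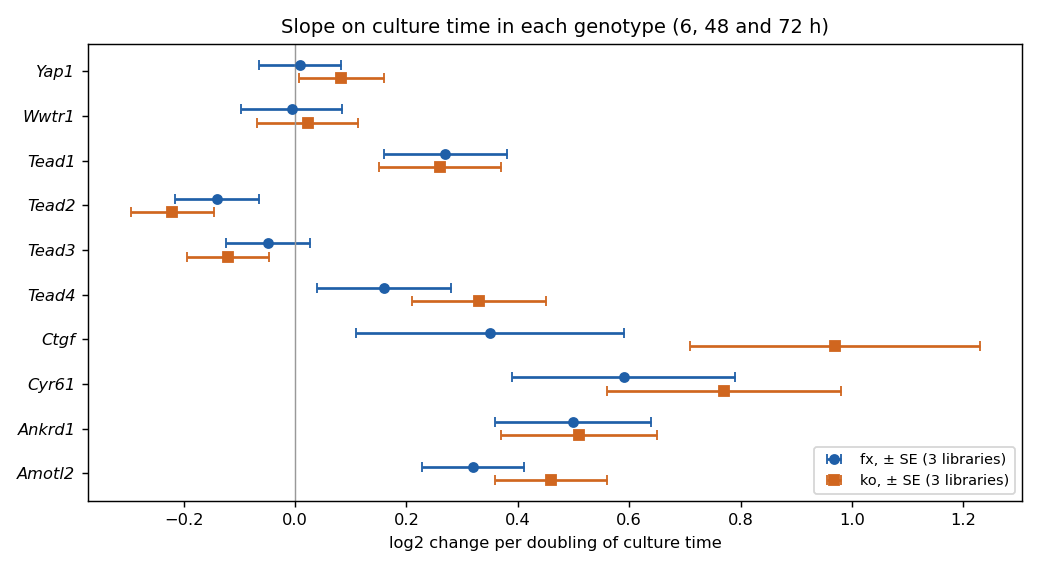
Log2 change per doubling of culture time, with SE, in fx (circles) and ko (squares), each over the 3 libraries of 6, 48 and 72 h, for the 10 genes. The 4 targets and Tead1 lie right of 0 in both lines and Tead2 lies left of 0, and the error bars of the lines overlap except for Ctgf.

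The slopes of the 2 lines could not be told apart by test. Ctgf had the largest difference, 0.35 (SE 0.24) in fx and 0.97 (SE 0.26) in ko, with an interaction of 0.62 (SE 0.32, adjusted p = 1.00, edgeR). Of the 10 genes 0 passed for the interaction and 0 had an unadjusted p under 0.05, and of all tested genes 0 passed and 0.480% had such a p.

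Over the 8 libraries, likeness of pattern was measured as the root mean square difference of log2 CPM about each gene's mean, over 10544 other genes of at least 5 CPM, with no test. Ctgf and Cyr61 were near each other (0.476), and of all genes only 7 were nearer to Ctgf than Cyr61 was. Ankrd1 and Cyr61 differed by 1.30. The genes nearest to Cyr61 were Bdkrb1, Adamts12 and Ereg (0.322 to 0.340), and those nearest to Ctgf were Adcy1, Tfrc and Has2 (0.389 to 0.416). Ankrd1 was most like Angptl4, Ccnd1 and Cxcr7 (0.224 to 0.305), Amotl2 most like Crim1, Hipk2 and Steap2 (0.156 to 0.171), and Wwtr1 most like Arnt, Hiat1 and Arntl (0.0643 to 0.0745). Crim1 is also on the list of further YAP/TAZ targets below, and Arnt and Hiat1 lie on chromosome 3 as Wwtr1 does. Without the library labelled ko 24 h, 22 of the 30 nearest genes were the same.

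Of 18 further genes listed as YAP/TAZ targets 17 were tested, and 6 were called for genotype with the block, 4 higher and 2 lower in ko. With edgeR 0 were called without the block, against 2.22% of all genes, and 0 with it over all 8 libraries, against 0.337%. At an unadjusted p under 0.05 without the block it was 5, where 14.0% of all genes were. DESeq2 without the block called 2, Asap1 and Igfbp3, against 6.65% of all genes, and edgeR without the block over 7 libraries called 1, Asap1, against 3.66%. Higher with the block were Igfbp3, an IGF-binding protein (log2 fold change 1.54, SE 0.13, adjusted p = 4.70e-04, edgeR with block), Nuak2, a kinase that acts on myosin (1.03, SE 0.13), Gadd45a, a growth arrest gene (0.88, SE 0.14), and the receptor kinase Axl (0.43, SE 0.13, adjusted p = 0.0473). Lower were Asap1, an Arf GTPase-activating protein (-0.87, SE 0.13), and the transcription factor Foxf2 (-0.76, SE 0.17). The calls went in both directions, and the median of the list was -0.020, where that of all tested genes was 0.019. As given above, 22.7% of all genes were called in this fit. The call of Axl was lost without any 1 of the 3 culture times, and that of Foxf2 without 6 h or without 48 h.

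Of 33 regulators of the Hippo pathway 29 were tested, and 6 were called with the block, 2 higher and 4 lower. The blocked fit called 22.7% of all genes, and the share of this list was no higher. With edgeR 0 were called without the block, against 2.22% of all genes, and 0 with it over all 8 libraries, against 0.337%. The 4 at an unadjusted p under 0.05 without the block stand against 14.0% of all genes. DESeq2 without the block called 2, Wwc1 and Vgll4, against 6.65% of all genes, so these shares too were near the background. Higher in ko with the block were Jub (Ajuba), a LIM protein that holds back the LATS kinases (log2 fold change 1.18, SE 0.15, adjusted p = 0.00211, edgeR with block), and Wwc1 (KIBRA), an upstream activator of them (0.92, SE 0.15). Lower were the LATS cofactor Mobkl1a (Mob1b, -0.91, SE 0.23), Vgll4, which competes with YAP for TEAD (-0.86, SE 0.15), the polarity protein Dlg1 (-0.54, SE 0.13) and the kinase Taok1 (-0.45, SE 0.14). Without the libraries of 6 h, or without those of 72 h, the blocked fit called 3 of the list, and the calls of Mobkl1a, Dlg1 and Taok1 were lost (13.9% and 11.7% of all genes were then called). Without the ko library of 6 h, and without the block, Mobkl1a was at -0.40 and Taok1 at -0.22, and without fx at 72 h they were at -0.55 and -0.24. The kinases Lats1 (-0.014, SE 0.13) and Lats2 (0.075, SE 0.17) did not pass, and the median over the list was -0.086. Members called in this list include both activators and inhibitors of the pathway.

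**Figure D5:**
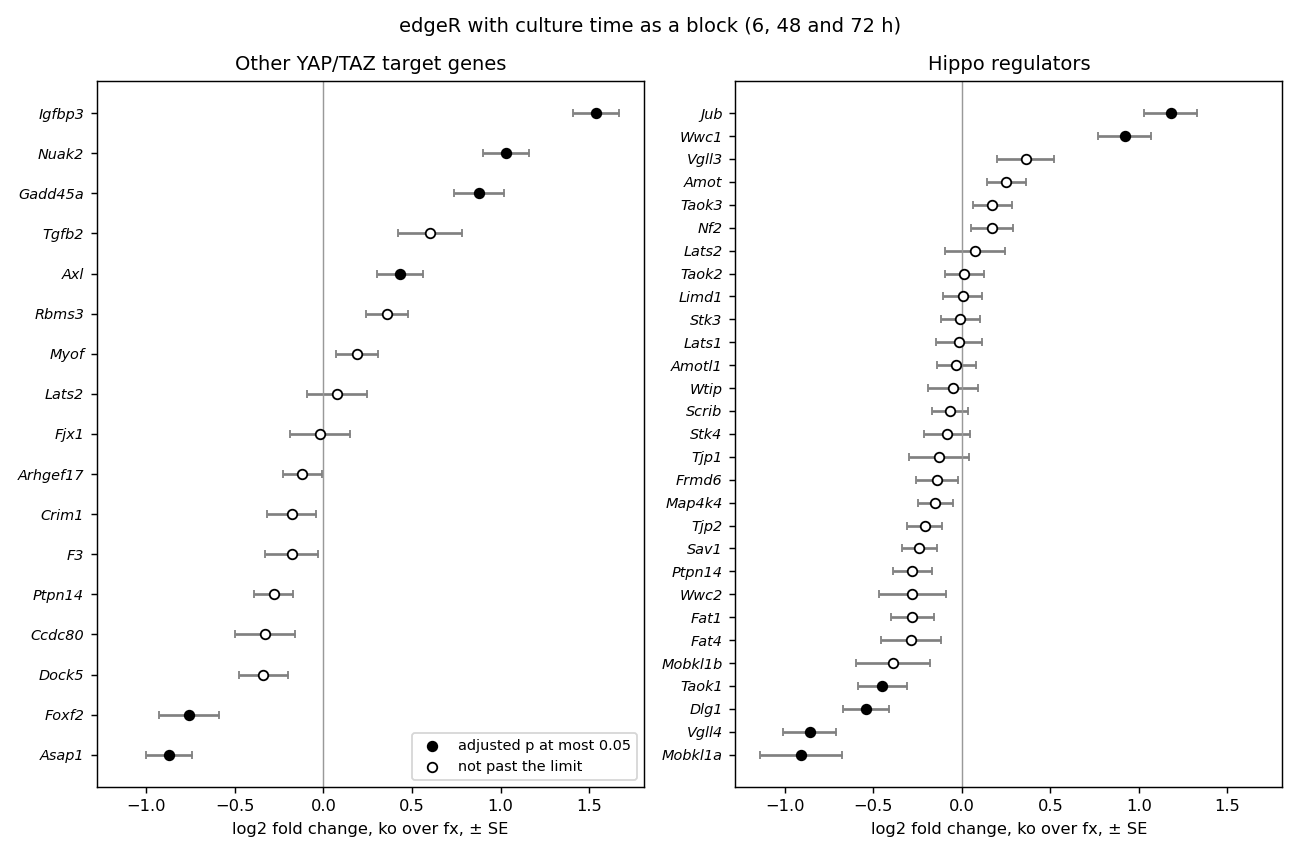
Log2 fold change, ko over fx, with SE from the edgeR fit with culture time as a block, for the 17 tested further targets (left) and the 29 tested Hippo regulators (right). Filled points passed an adjusted p of 0.05: 6 targets from -0.87 (Asap1) to 1.54 (Igfbp3), and 6 regulators from -0.91 (Mobkl1a) to 1.18 (Jub).

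The order of mean levels per length, with all annotated exons as the length, differed between the lines at the top. In fx it ran Cyr61 (258 ± 199 RPKM, SD, n = 3), Ctgf (82.9 ± 45.1), Ankrd1 (62.5 ± 42.9), Wwtr1 (46.2 ± 4.06) and Amotl2 (43.3 ± 17.2), and in ko Ankrd1 (136 ± 88.1), Cyr61 (95.6 ± 94.0), Ctgf (72.5 ± 88.4), Amotl2 (46.4 ± 23.1) and Wwtr1 (29.9 ± 4.02). Below them both lines had Tead2, Yap1, Tead1, Tead3 and Tead4 in this order, from 26.1 ± 4.96 to 3.02 ± 0.732 RPKM in fx and from 22.5 ± 6.34 to 3.13 ± 1.26 RPKM in ko. Neighbours in the order overlapped in their ranges except Tead3 and Tead4 in both lines and Tead2 and Yap1 in fx. With the longest transcript as the length the order changed: in fx Amotl2 (61.5 RPKM) stood above Wwtr1 (47.0 RPKM), and in ko Yap1 (32.5 RPKM), Tead2 (30.9 RPKM) and Wwtr1 (30.4 RPKM) followed Amotl2, with Tead3 (17.5 RPKM) above Tead1 (17.3 RPKM). Tead2 and Yap1 then overlapped in fx, and the ranges did not overlap between Yap1 and Tead1 in fx, between Wwtr1 and Tead3 and between Tead1 and Tead4 in ko, or between Tead3 and Tead4 in fx.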

How the data were processed

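Total RNA of the 8 libraries was sequenced as single-end reads per the labels, while the methods name paired reads, and the deposited design text differs from the labels in the first culture time. After CASAVA 1.8.2, alignment to mm9 was done by the authors with TopHat2 2.0.8b, and they deposited unnormalized HTSeq counts per gene symbol; annotation and strand setting are not given in the sources used here, so reads of overlapping genes cannot be told apart. HTSeq's summary counters were left out of library sizes, and alignments with several positions were 41.3 to 49.6% of all and are not counted, which lowers genes that have near-identical copies. This share was higher in ko than in fx at 6, 48 and 72 h (48.4, 42.7 and 49.6% against 42.9, 41.3 and 45.6%). The part of this difference in the results was not tested. The lncRNA tables were not used. Groups and times came from the labels.

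Counts were tested in R 4.3.3 with edgeR 4.0.16 (TMM, at least 10 counts and 15 in total by its filter, quasi-likelihood test, Benjamini-Hochberg adjustment over all tested genes). CPM was scaled with TMM over 8 libraries, whose factors were 0.9352 to 1.0398, and RPKM used GENCODE M1 lengths on NCBIM37 (mm9), which held 95.7% of symbols. A level of 3 counts, 0.0929 to 0.124 CPM, was the floor, and it covers counting error only. Likeness used log2 CPM with 0.5 added. Libraries of the same time deviated together from their genotype means (correlations 0.735, 0.572 and 0.866 at 6, 48 and 72 h), so culture time pairs them. Alternatives used DESeq2 1.42.0 and limma 3.58.1 (log2 RPKM with 0.1 added), other scaling, filters and library sets, and each library left out in turn. DESeq2 with the block, library totals as scaling, and the blocked fit without one culture time were added after seeing the data. The scripts were tested on simulated data.

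The genes and lists were chosen with earlier results of these data known. Named genes are the 10, Bmp2, called genes of the wider lists (at most 8 per list) and the 3 nearest in pattern. Lats1, Lats2, Cd37 and the markers Lhx8, Vim, Col1a1, Col1a2, Pdgfrb, Pdgfra, Msx1, Msx2, Lhx6, Pax9, Cd14, Cd68, Csf1r, Nes, Krt14, Kdr, Des, Tek, Dspp, Dmp1, Alpl, Myog, Ckm and Myh3 were named in addition, after their values were seen. Summaries used Python 3.11.15 (pandas 2.3.3, numpy 2.4.6) and figures matplotlib 3.10.9.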

Additional observations from a re-analysis of the deposited data

How the results depend on the processing

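With culture time as a replicate block the calls for genotype among the 10 genes went from 0 to 3 (1 over all 8 libraries with the block), and with DESeq2 to 1, or 3 with its block. Leaving out each library, or both of one culture time under the block, gave 0 to 4, the 4 without the libraries of 72 h. Among the further targets the calls went from 0 to 6 with the block, 1 over 7 libraries, 2 with DESeq2 and 7 with its block (0 to 5 on leaving out, 0 over all 8 libraries with the block), and among the Hippo regulators to 6, 2 with DESeq2 and 6 with its block (0 to 6, and 0 over all 8 with the block). The share of all genes called rose alongside, from 2.22% to 22.7% with the block, 3.66% over 7 libraries, 6.65% with DESeq2 and 24.1% with its block. Over all 8 libraries with the block this share was 0.337%. Slopes were called for 6 genes with DESeq2 and for 0 to 3 on leaving out a library. The ratio of Wwtr1 to Yap1 per length moved to 1.49 in fx and 0.946 in ko with the longest transcript. Values near 0 changed sign. For Tead4 the genotype value was 0.042, and -0.013 with the block, -0.071 over 8 libraries, -0.13 over 8 with the block, -0.003 over 7, -0.022 in DESeq2 with the block and -0.020 in limma. For Amotl2 it was 0.084, and -0.26 over 8 libraries, -0.34 over 8 with the block and -0.092 over 7. The slope of Wwtr1 was -5.91e-04 per hour, and the interaction was 0.016 for Tead1 over 8 libraries and -7.45e-05 per hour for Ankrd1. In the blocked fit without 48 h and without 72 h the genotype value was -0.057 and -0.030 for Yap1 and -0.10 and -0.14 for Tead4, it was -0.19 for Amotl2 without 48 h and 0.11 for Tead1 without 72 h. On leaving out single libraries it ranged from -0.075 to 0.10 for Yap1, -0.35 to 0.26 for Tead1, -0.20 to 0.33 for Tead4, -1.93 (without ko at 72 h) to 0.32 (without fx at 72 h) for Ctgf, -0.20 to 0.44 for Amotl2, -2.60 to -0.64 for Cyr61, 0.51 to 1.8 for Ankrd1, -0.47 (without ko at 6 h) to -0.051 (without ko at 72 h) for Tead2 and 0.14 (without ko at 6 h) to 0.36 for Tead3. The slope ranged from -0.021 to 0.039 for Wwtr1, 0.41 to 0.99 for Ctgf, 0.15 (without ko at 6 h) to 0.32 for Tead4, -0.11 to -0.055 (without ko at 72 h) for Tead3 and 0.012 to 0.10 for Yap1. The cause was not tested. The median log2 fold change of all tested genes was 0.034 with TMM and 0.030 with library totals. With 1 library per line and time, the spread between replicates holds the change with culture time unless the block removes it, and the genotype cannot be told apart from other differences between the 2 lines.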
